A study of Homo sapiens with 6 samples.

Results

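The 10 immediate early genes FOS, FOSB, FOSL2, JUN, JUNB, JUND, EGR1, IER2, IER3 and KLF6 were examined in PANC-1 cells after silencing of METTL16. They were chosen by name from the 58735 genes of the deposited table, and all 10 were among the 15089 genes with enough counts to be tested. PANC-1 is an established human pancreatic ductal adenocarcinoma line. The 3 si-NC samples carried a control siRNA and the 3 si-METTL16 samples an siRNA against METTL16, an RNA methyltransferase that places N6-methyladenosine. The methods describe the triplicates of each group as biological and the transfection as stable. All 6 samples came from unsorted cells grown in DMEM with fetal bovine serum, so serum factors were present in both groups. A further label of the control samples reads WT, whereas their titles give si-NC, and the titles were followed. The methods describe puromycin selection of stable knockdown lines made with shRNA, and do not say whether the sequenced cells passed through it. The siRNA used for sequencing and the time between transfection and harvest are not given in the sources used here.

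Immediate early genes are transcribed within minutes of a growth factor, stress or calcium signal without new protein synthesis, and their mRNAs are short-lived. Serum response factor with its ELK partners, and CREB, act at many of their promoters downstream of MAP kinases. JUN proteins pair with each other or with FOS proteins to form AP-1, which binds DNA, whereas FOS proteins need a JUN partner. In pancreatic cancer cells, AP-1 is a well known output of MAP kinase signalling.

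The targeted gene had 1546, 1641 and 1764 counts in si-NC samples and 571, 528 and 627 counts in si-METTL16 samples, by replicate number. Its level was 35.9% of the control level, so the target matched the label in all 6 samples. Samples held between 15725298 and 18054436 counts, at which 3 counts equal 0.167 to 0.192 CPM, the count scaled by the library total after TMM adjustment. Of the 7 ductal line markers, KRT8, KRT18 and VIM had group means of 1146 to 2139 CPM and KRT19 of 191 and 72 CPM, whereas CDH1 (23.8 and 11.2), EPCAM (7.75 and 10.5) and KRT7 (6.55 and 3.66) were low in si-NC and si-METTL16 cells. Of the markers of other cell types, 6 of 10 (PECAM1, VWF, INS, GCG, PRSS1 and CPA1) had at most 3 counts in every sample. VIM, a mesenchymal gene, was put on the ductal list because PANC-1 is partly mesenchymal. This list, nearly all of it KRT8, KRT18 and VIM, summed to 4363 to 5806 CPM in si-NC and 4970 to 5331 CPM in si-METTL16 cells. By edgeR at an adjusted p under 0.05, 3 of its 7 genes were lower and none was higher. These 3 were the epithelial genes KRT19 (-1.40 on the log2 scale), CDH1 (-1.09) and KRT7 (-0.84). The list of other cell types summed to 327 to 378 CPM in si-NC and 803 to 841 CPM in si-METTL16 cells, nearly all of it COL1A1. The part of these marker shifts in the results below was not tested.

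Promoters of 4 members are shown, those of FOSB, FOS and EGR1, which rose, and that of JUNB, which fell. RefSeq promoter sequences (GRCh38.p14, 5′ to 3′ on the gene's strand) were matched for 9 of the 10 members, all but IER3. Each line covers positions -120 to -11 before the RefSeq start of transcription. The FOS locus of the deposited table starts at chr14:75278774, which lies within the FOS window. Capitals mark the CArG box bound by serum response factor, the CRE core TGACG or its reverse complement CGTCA, and TATAAA. The 4 windows lie at chr19:45467876-45467985 (FOSB), chr14:75278708-75278817 (FOS), chr5:138465359-138465468 (EGR1) and chr19:12791366-12791475 (JUNB), all on the plus strand.
FOSB: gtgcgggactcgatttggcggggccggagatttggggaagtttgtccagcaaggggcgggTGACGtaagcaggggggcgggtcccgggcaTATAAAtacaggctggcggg
FOS: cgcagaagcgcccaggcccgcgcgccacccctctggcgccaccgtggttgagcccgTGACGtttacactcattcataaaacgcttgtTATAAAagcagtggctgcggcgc
EGR1: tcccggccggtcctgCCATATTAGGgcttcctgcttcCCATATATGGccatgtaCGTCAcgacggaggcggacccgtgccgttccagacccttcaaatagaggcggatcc
JUNB: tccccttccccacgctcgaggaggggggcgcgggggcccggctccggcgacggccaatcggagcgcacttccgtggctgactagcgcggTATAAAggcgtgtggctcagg

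The FOSB and FOS windows had the same layout, with TGACG starting at -60 and -64 and TATAAA starting at -30 and -33. JUNB held TATAAA at -31 and TGACG further upstream, at -137. EGR1 was the member with CArG boxes in the 250 bases before its start, at -105 to -96 and at -83 to -74, and 1.16% of the 35116 RefSeq promoters held such a box there. On either strand, TGACG was found in 21.2% of all promoters and, on the gene's strand, TATAAA in 6.8%. The CRE core also occurred before FOSL2, JUN, JUND and IER2, in JUND at -200 as the full element TGACGTCA, which contains it and occurred in 1.65% of promoters. The matches of FOSL2 and JUN precede the RefSeq start but lie within the loci of the deposited table. KLF6 held no motif of those searched, and the AP-1 site TGACTCA (4.2% of promoters) was in none of the 9 as an exact match. Variants of TGACTCA were not searched, so AP-1 sites of other spelling, in JUN or elsewhere, would be missed. Such matches describe the letters of the window and say nothing of binding in these cells. Bases further upstream were not searched, so a CArG box of FOS or another member beyond these 250 bases would be missed.

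Among the 10 genes, 6 rose, 1 fell and 3 did not pass the test after METTL16 silencing. Expression of FOSB, FOS, EGR1, FOSL2, JUN and KLF6 was higher, that of JUNB was lower, and JUND, IER2 and IER3 were not called. Over all 15089 tested genes, 35.9% were called by edgeR's quasi-likelihood test at a Benjamini-Hochberg adjusted p under 0.05, 18.4% as higher and 17.5% as lower. The groups did not overlap for 7 of the 10 members, against 50.9% of all tested genes. The median log2 fold change of the members was 0.74 and that of all tested genes was 0.00. Summed over the members, expression was 621 to 629 CPM in si-NC and 738 to 818 CPM in si-METTL16 samples. This sum mostly reflects the members with high levels. In si-NC cells the means were 154 CPM for IER3, 134 for KLF6 and 90 for JUN, against 0.836 for FOS and 0.874 for FOSB. In bulk RNA, a change in the share of responding cells and a change in RNA per cell cannot be told apart.

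**Figure D1:**
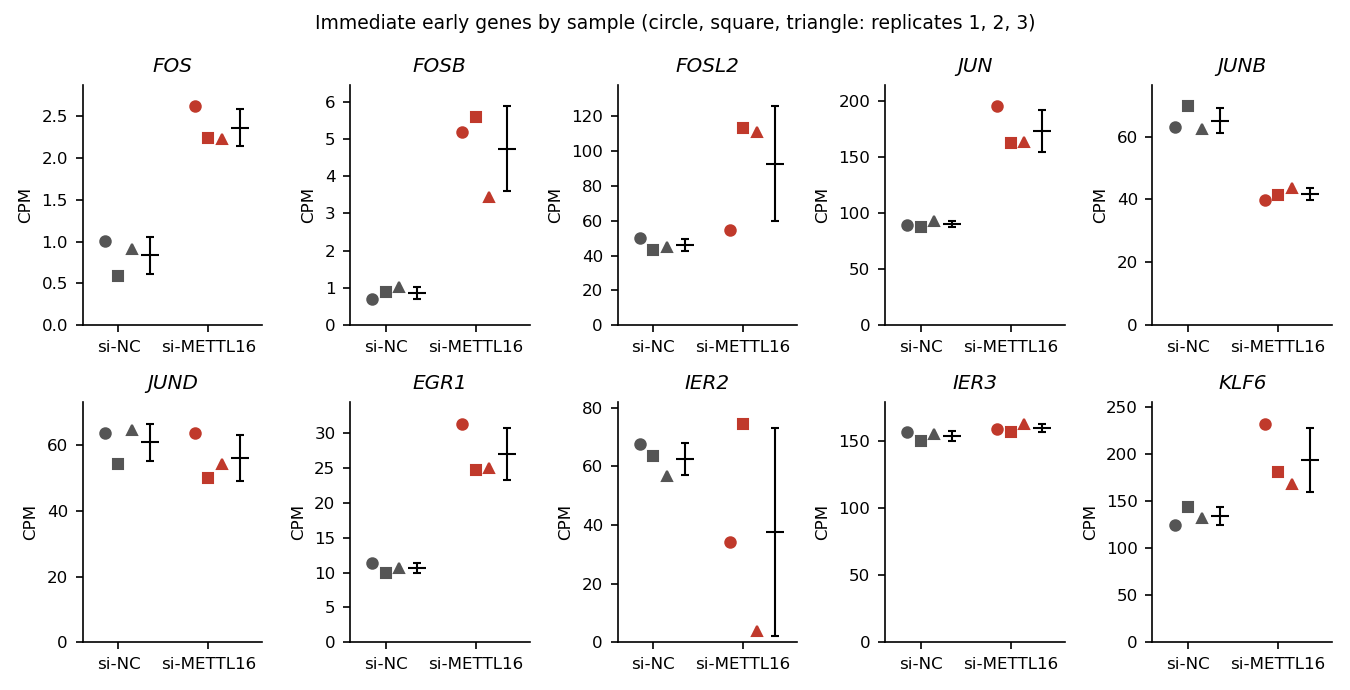
Expression of the 10 immediate early genes in each sample, in CPM on linear axes that start at 0. Circles, squares and triangles are replicates 1, 2 and 3 of si-NC (grey) and si-METTL16 (red), and bars give the mean ± SD of 3 samples. The groups are apart for 7 genes, si-METTL16 replicate 1 of FOSL2 (54.6 CPM) lies close to si-NC, and IER2 spans 3.95 to 74.6 CPM in si-METTL16 cells.

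FOSB (chr19:45467995-45475179), a FOS protein that also exists as a long-lived truncated form, showed the largest rise of the members. In si-NC samples it had 12, 15 and 18 counts (replicates 1 to 3, the order used throughout), against 85, 87 and 62 counts in si-METTL16 samples, or 0.710, 0.884 and 1.03 CPM against 5.18, 5.58 and 3.45 CPM. Every silenced sample lay above every control sample, and replicate 3 was the lowest of the silenced samples. Its mean went from 0.874 ± 0.159 to 4.74 ± 1.13 CPM (SD, n = 3), a 5.37-fold rise (log2 fold change 2.42, standard error 0.28, adjusted p = 8.4e-04 by edgeR, as for all adjusted p-values given). The 95% interval ran from 1.76 to 3.08 on the log2 scale.

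FOS (chr14:75278774-75282230), the founding partner of JUN in AP-1, had 17, 10 and 16 counts in si-NC samples and 43, 35 and 40 counts in si-METTL16 samples. This was 1.01, 0.589 and 0.913 CPM against 2.62, 2.24 and 2.23 CPM. The groups did not overlap, although all values were low and the precision was limited by these counts. The change was 2.81-fold (log2 fold change 1.49, standard error 0.28, 95% interval 0.83 to 2.15, adjusted p = 0.00634). Both genes were called in each of the 12 alternative fits that tested them, with log2 fold changes of 2.29 to 2.61 for FOSB and 1.29 to 1.64 for FOS.

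FOSL2 (chr2:28392448-28417312), a FOS protein that is induced later and lasts longer than FOS, was uneven among the silenced samples. Its expression was 49.8, 43.3 and 44.8 CPM in si-NC cells and 54.6, 113 and 111 CPM in si-METTL16 cells. Replicate 1 of the silenced cells was at 119% of the control mean, whereas replicates 2 and 3 were at 245% and 241%, and the groups still did not overlap. The log2 fold change was 1.01 (standard error 0.26, 95% interval 0.40 to 1.62, adjusted p = 0.0206). Without si-METTL16 replicate 1 it was 1.28 (adjusted p = 8.5e-04). The call was lost when any other sample was left out, with log2 fold changes of 0.96 to 1.07 without an si-NC replicate, and 0.85 and 0.87 without si-METTL16 replicate 2 or 3 (adjusted p from 0.0504 to 0.0662).

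The 3 JUN genes went separate ways. JUN (chr1:58780788-58784327), a strong activator and the founding member of its family, was at 89.7, 87.9 and 92.6 CPM in si-NC and 195, 162 and 163 CPM in si-METTL16 cells. The control values lay close together and far below the silenced ones, of which replicate 1 was the highest. JUN rose 1.93-fold (log2 fold change 0.95, standard error 0.09, adjusted p = 3.4e-04) and was called in all 14 alternative fits. JUNB (chr19:12791496-12793315), which activates AP-1 targets less than JUN and can oppose it, was at 63.1, 69.6 and 62.3 CPM in si-NC and 39.9, 41.5 and 43.7 CPM in si-METTL16 cells. All silenced samples lay below all controls within a narrow range. JUNB fell to 64.2% of the control level (log2 fold change -0.64, standard error 0.08, adjusted p = 0.00107), again in all 14 alternatives. JUNB shares 259 exon bases with HOOK2 on the opposite strand. HOOK2 had 106 to 143 counts per sample against 648 to 1181 for JUNB, and whether counting used strand is not given in the sources used here.

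JUND (chr19:18279760-18281622) is the family member that is present at a steady level in resting cells. It was at 63.9, 54.4 and 64.6 CPM in si-NC and 63.8, 50.1 and 54.4 CPM in si-METTL16 cells, and the groups overlapped. Its log2 fold change of -0.12 had a 95% interval from -0.39 to 0.15 (adjusted p = 0.451), so a change of the size measured for JUN or JUNB lay outside the interval. No alternative called JUND.

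EGR1 (chr5:138465490-138469315), a zinc finger factor that binds GC-rich promoters and induces its own corepressors, was at 11.3, 9.90 and 10.6 CPM in si-NC and 31.3, 24.6 and 25.0 CPM in si-METTL16 cells. The groups were far apart, and replicate 1 was the highest of the silenced samples, as for FOS, JUN and KLF6. EGR1 rose 2.55-fold (log2 fold change 1.35, standard error 0.13, 95% interval 1.05 to 1.65, adjusted p = 4.0e-04) and was called in all 14 alternatives at 1.11 to 1.41.

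KLF6 (chr10:3775996-3785281), a zinc finger factor of the Krüppel-like family known as a tumor suppressor in several epithelia, was at 125, 144 and 132 CPM in si-NC and 232, 181 and 168 CPM in si-METTL16 cells. Every silenced sample lay above every control, with a larger spread among the silenced samples (SD 33.9 against 9.53 CPM). The rise was 1.45-fold (log2 fold change 0.53, standard error 0.13, adjusted p = 0.0148). The call was lost without si-NC replicate 1 (0.48, adjusted p = 0.0547) and without si-NC replicate 3 (0.53, adjusted p = 0.0508), and without si-METTL16 replicate 1 the log2 fold change was 0.38 (adjusted p = 0.0196).

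IER2, a small nuclear protein, and IER3, a membrane-associated protein, share a naming scheme but no family and lay at opposite ends of the replicate spread. IER3 (chr6:30743199-30744554), a regulator of survival under stress, was at 157, 150 and 155 CPM in si-NC and 159, 157 and 163 CPM in si-METTL16 cells. The ranges overlapped and no sample stood apart. Its log2 fold change of 0.05 had a 95% interval of only -0.07 to 0.17 (adjusted p = 0.478), the narrowest of the 10 genes. Overlapping antisense genes of IER3 were nearly silent, with 0 to 17 counts per sample for IER3-AS1.

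IER2 (chr19:13150415-13154908) had 1140, 1080 and 994 counts in si-NC cells but 565, 1163 and 71 counts in si-METTL16 cells. In CPM this was 67.5, 63.6 and 56.7 against 34.4, 74.6 and 3.95. The silenced samples lay at 55.0%, 119% and 6.31% of the control mean, above it in replicate 2 and far below it in replicate 3. Highest and lowest values differed 18.9-fold among the silenced samples and 1.19-fold among the controls. The log2 fold change of -0.74 (standard error 0.77, 95% interval -2.56 to 1.08, adjusted p = 0.494) therefore covers both a rise and a fall. It ranged from -0.20 without si-METTL16 replicate 3 to -1.71 without si-METTL16 replicate 2, with no call in any alternative. A larger SD of log2 CPM among the silenced samples was found for 34 of the tested genes (0.225%). Samples without counts for a gene were left out of its SD, so some wide spreads may be missed.

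IER2 shares 946 exon bases with a long noncoding RNA gene on the opposite strand, which had 0 to 5 counts per sample. It shares 662 exon bases with another such gene, which is absent from the deposited table, and strand use in counting is not given. Around IER2, the 4 other tested genes within 100000 bases (NFIX, TRMT1, NACC1 and STX10) differed 1.11-fold to 2.06-fold among the silenced samples. NACC1, for example, was at 113, 103 and 127 CPM in si-METTL16 cells, so it was not low in replicate 3, where IER2 was. A rule set after the values were seen asked for genes with a range of at least 10-fold in silenced cells, at most 1.5-fold in controls and at least 10 CPM in some sample. It returned 5 genes, namely IER2, FTH1P10, AC087190.3, NUDT4 and KIAA1147. NUDT4 was also low in si-METTL16 replicate 3 (79.2, 70.1 and 4.34 CPM), whereas KIAA1147 and FTH1P10 were low in replicate 1 and AC087190.3 was high in replicate 2. Whether the assignment of reads between similar sequences had a part in these spreads was not tested. The library of si-METTL16 replicate 3 had the highest total count of the 6. Among the silenced samples it was the lowest for FOSB, IER2 and KLF6, and for FOS by a near tie (2.23 CPM against 2.24 in replicate 2). It was the highest for JUNB and IER3.

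**Figure D2:**
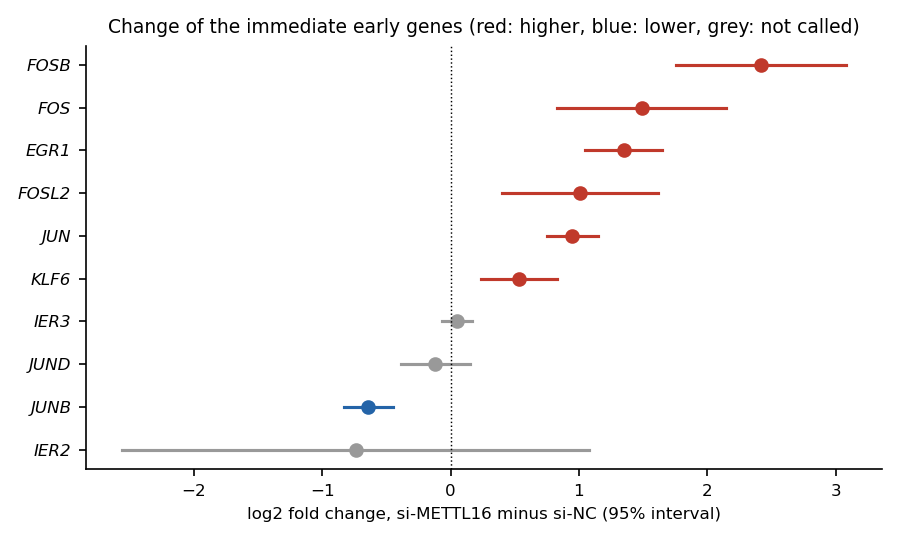
Log2 fold change of each immediate early gene, si-METTL16 minus si-NC, from edgeR, with 95% intervals as bars, 3 samples per group and red, blue and grey for higher, lower and not called. FOSB is highest at 2.42, JUNB is the called gene below 0 at -0.64, and the IER2 interval, from -2.56 to 1.08, is the widest.

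Levels of different genes were compared as CPM per kilobase of the MANE Select transcript. The deposited FPKM was not used for this order, because the length behind it exceeded that transcript 4.32-fold for FOS (9099 against 2104 bases), 4.37-fold for FOSB and 2.99-fold for IER2 but 0.99-fold to 1.22-fold for the JUN genes. In si-NC cells IER3 led at 124 ± 2.87 CPM per kilobase, followed by JUNB (35.5 ± 2.17), JUND (31.6 ± 2.93), IER2 (29.7 ± 2.59), KLF6 (29.1 ± 2.08) and JUN (27.6 ± 0.732). The ranges of JUNB and JUND did not overlap, while each neighbouring pair from JUND to JUN did. FOSL2 (6.84 ± 0.508), EGR1 (3.37 ± 0.224), FOS (0.397 ± 0.104) and FOSB (0.231 ± 0.042) followed without overlap of their ranges.

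In si-METTL16 cells IER3 remained first (129 ± 2.49 CPM per kilobase), but JUN (53.3 ± 5.74) and KLF6 (42.2 ± 7.38) came next and overlapped each other. JUND (29.1 ± 3.64) and JUNB (22.8 ± 1.04) followed without overlap of their ranges. IER2 (17.8 ± 16.8) ran from 1.87 to 35.3 and spanned the ranges of JUND, JUNB, FOSL2 (13.8 ± 4.92) and EGR1 (8.60 ± 1.20), so it has no settled place in this order. FOSL2 overlapped EGR1. FOSB (1.25 ± 0.300) and FOS (1.12 ± 0.106) stayed lowest and overlapped. Despite the largest fold rises, their silenced levels were still below the control level of EGR1.

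The JUN family differed between the groups in its make-up. On the deposited FPKM scale, JUN held 29.1%, 28.8% and 29.8% of the summed JUN, JUNB and JUND level in si-NC cells and 53.0%, 51.0% and 49.5% in si-METTL16 cells. No sample of one group came near the other. The mean JUN share was 29.2% ± 0.507 against 51.1% ± 1.72 (SD, n = 3), a difference of 21.9 percentage points (two-sided exact permutation test, p = 0.1, the smallest that 3 samples against 3 allow). The difference was -17 points for JUNB, from 41.1%, and -4.9 points for JUND, from 29.7%, with the same exact permutation p of 0.1 each. With CPM per kilobase of the MANE Select transcript, a scale added after the FPKM lengths were seen, the JUN share was 29.2% against 50.6%. The family sum on that scale was 94.8 ± 1.40 against 105 ± 8.56 CPM per kilobase. It ran from 93.2 to 96 in si-NC and from 98.4 to 115 in si-METTL16 cells, without overlap (exact permutation p = 0.1).

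In the FOS family the sum differed between the groups as well. Summed FOS, FOSB, FOSL1 and FOSL2 was 23.6, 19.6 and 21.3 CPM per kilobase in si-NC and 57.0, 60.1 and 50.6 in si-METTL16 cells, with no overlap (exact permutation test, p = 0.1). FOSL1, a FOS protein induced by MAP kinase signalling that is not among the 10 genes, made up most of it, at 65.2% ± 0.617 in si-NC and 70.8% ± 9.22 in si-METTL16 cells (exact permutation p = 0.4). On the same scale the FOSL2 share was 31.5%, 32.9% and 31.3% in si-NC and 14.3%, 27.9% and 32.7% in si-METTL16 cells. Replicate 1 lay far below the controls, and replicate 3 lay within their range. The means of 31.9% ± 0.854 and 24.9% ± 9.55 differed by -6.95 points (exact permutation p = 0.3). On the deposited FPKM scale the difference was -8.42 points (exact permutation p = 0.3), -1.74 points without si-METTL16 replicate 1 and -13.1 points without replicate 3. The FOSB share was 1.09% ± 0.256 against 2.22% ± 0.362 per kilobase of the MANE Select transcript (exact permutation p = 0.1), so it remained a small part of the family.

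**Figure D3:**
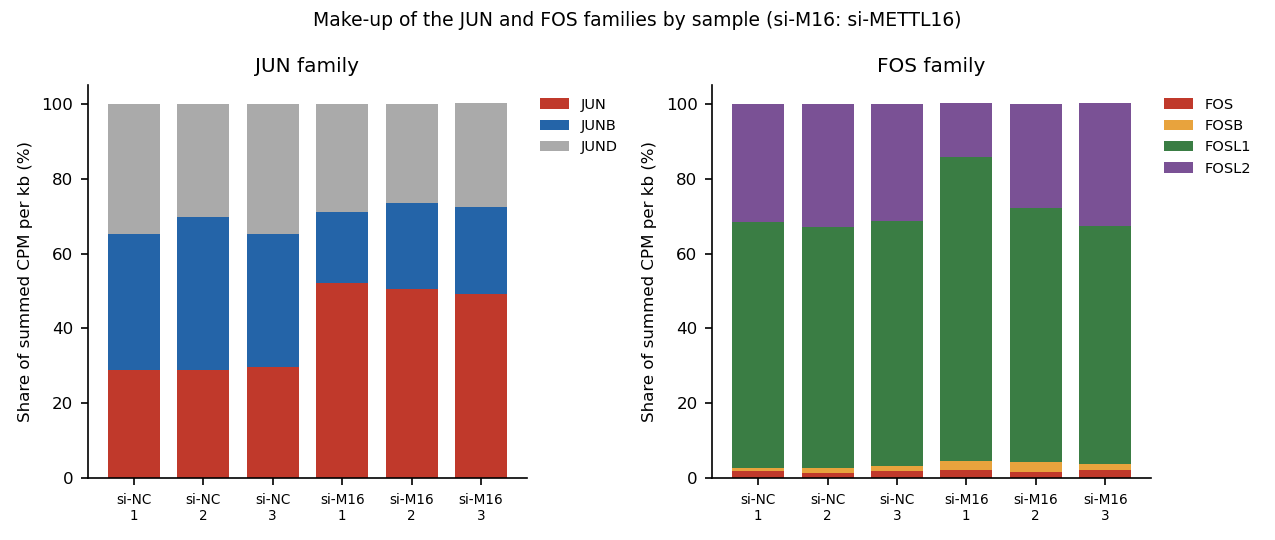
Make-up of the JUN family (left) and the FOS family (right) in each sample, as stacked shares of the summed CPM per kilobase of MANE Select transcript, in percent. The JUN share is near 29.2% in the 3 si-NC samples and 50.6% on average in the 3 si-METTL16 samples, and FOSL2 takes only 14.3% of the FOS family in si-METTL16 replicate 1.

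Other AP-1 dimer partners moved in both directions. Of 14 listed genes 11 were tested, with 5 higher, 1 lower and 5 not called (median 0.36), a called share of 54.5% against 35.9%. FOSL1 rose from 23.8 ± 2.42 to 67.6 ± 12.2 CPM (2.83-fold, 95% interval 1.15 to 1.86 on the log2 scale, adjusted p = 4.8e-04). JDP2, a repressor that pairs with JUN, fell from 25.7 ± 9.95 to 8.59 ± 2.17 CPM (-1.58, adjusted p = 0.00787). BATF3, a partner known from immune cells, was called at 0.96 (adjusted p = 0.0296) but not when any sample except si-NC replicate 3 was left out, at 0.81 to 1.02, nor with the DESeq2 Wald test (adjusted p = 0.0673) or without the filter on low genes (0.0547). ATF3, an early response gene itself, was at 24.4 ± 3.90 and 23.0 ± 4.32 CPM and was not called.

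Among 37 other early response genes, 33 were tested, 19 were higher, 6 were lower and 8 were not called (median 0.52), a called share of 75.8% against 35.9%. The orphan nuclear receptor NR4A3 was at 0.710, 0.412 and 0.513 CPM in si-NC and 4.63, 2.69 and 3.28 CPM in si-METTL16 cells (2.68, adjusted p = 0.00111). MYC, the growth-promoting transcription factor, was at 8.34, 21.0 and 4.62 CPM in si-NC and 82.5, 72.4 and 56.2 CPM in si-METTL16 cells. It rose by 2.64 on the log2 scale (adjusted p = 0.00607), by 3.43 without si-NC replicate 2 and by 2.26 without si-NC replicate 3. ID1, an inhibitor of basic helix-loop-helix factors, fell by 0.84 on the log2 scale (adjusted p = 9.1e-04). KLF10, a TGF-beta-inducible factor of the same family as KLF6, was lower by edgeR (-0.74, adjusted p = 0.0428), with values of 83.6, 76.7 and 147 CPM in si-METTL16 cells. The KLF10 call was lost without any sample except si-METTL16 replicate 3, with log2 fold changes from -0.76 to -0.57. EGR2, EGR3 and EGR4, the relatives of EGR1, had at most 10 counts in any sample and were not tested.

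Of 17 factors that act on immediate early promoters, all tested, 5 were higher and 12 not called by edgeR (median 0.20), a called share of 29.4% against 35.9% of all tested genes. CREM, a cyclic AMP responsive factor, rose by 0.66 (adjusted p = 0.00408) and ATF1, a relative of CREB, by 0.52 (adjusted p = 0.00168). SRF, the factor that binds the CArG boxes seen before EGR1, was at 50.3 ± 3.91 and 54.7 ± 2.51 CPM (0.12, adjusted p = 0.309), and its partner ELK1 was at 73.7 ± 6.14 and 78.9 ± 1.40 CPM. The count for this list was 3 without si-NC replicate 2 and 3 without si-METTL16 replicate 1.

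In the MAP kinase cascade, 23 of 24 genes were tested, with 7 higher, 4 lower and 12 not called (median 0.02), a called share of 47.8% against 35.9%. MAP2K6, which activates p38, fell by 2.02 (adjusted p = 0.00435), and MAPKAPK2, a kinase downstream of p38, fell by 0.57 (adjusted p = 9.5e-04). MAPK11, a p38 kinase, was called higher at 0.66 (adjusted p = 0.0366) but not without any sample except si-NC replicate 3, at 0.52 to 0.73. The number of called genes went from 11 to 7 without si-NC replicate 1, si-NC replicate 3 or si-METTL16 replicate 1, and to 6 without si-NC replicate 2. These are mRNA levels, and kinase activity was not measured.

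Genes of mRNA decay and protein turnover, which affect how long FOS, JUN and EGR1 products last, were called at about the rate of all genes. All 21 were tested, with 5 higher, 4 lower and 12 not called (median -0.04), a called share of 42.9% against 35.9%. ZFP36L1, which binds AU-rich elements, fell by 0.64 (adjusted p = 0.0119), and the deadenylase subunit PAN3 fell by 0.83 (adjusted p = 0.00203). FBXW7, a ubiquitin ligase subunit for which JUN is a substrate, rose by 0.52 (adjusted p = 0.00916). The deadenylase CNOT7 was called at 0.54 (adjusted p = 0.019) but not without si-NC replicate 1 or 2 (0.54 and 0.44) or si-METTL16 replicate 1 or 2 (0.54 and 0.44).

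Of 22 known AP-1 and EGR1 targets and EGR1 corepressors, 16 were tested, 5 were higher, 3 lower and 8 not called (median -0.05), a called share of 50% against 35.9%. The matrix protein THBS1 rose from 47.5 ± 2.82 to 126 ± 9.35 CPM (1.41, adjusted p = 1.1e-04) and F3, the coagulation tissue factor, rose by 1.33 (adjusted p = 8.3e-04). CCND1, the cyclin of early G1, fell by 0.48 (adjusted p = 7.1e-04) and TIMP1, an inhibitor of matrix metalloproteases, by 0.39 (adjusted p = 0.00315). Neither EGR1 corepressor rose with EGR1. NAB2 went from 21.4 ± 2.62 to 16.9 ± 0.259 CPM (-0.34, adjusted p = 0.0495, just under the threshold), and NAB1 was not called (-0.15, adjusted p = 0.139). MMP1, MMP3, MMP10 and MMP13, textbook AP-1 targets, had at most 5 counts per sample and were not tested.

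**Figure D4:**
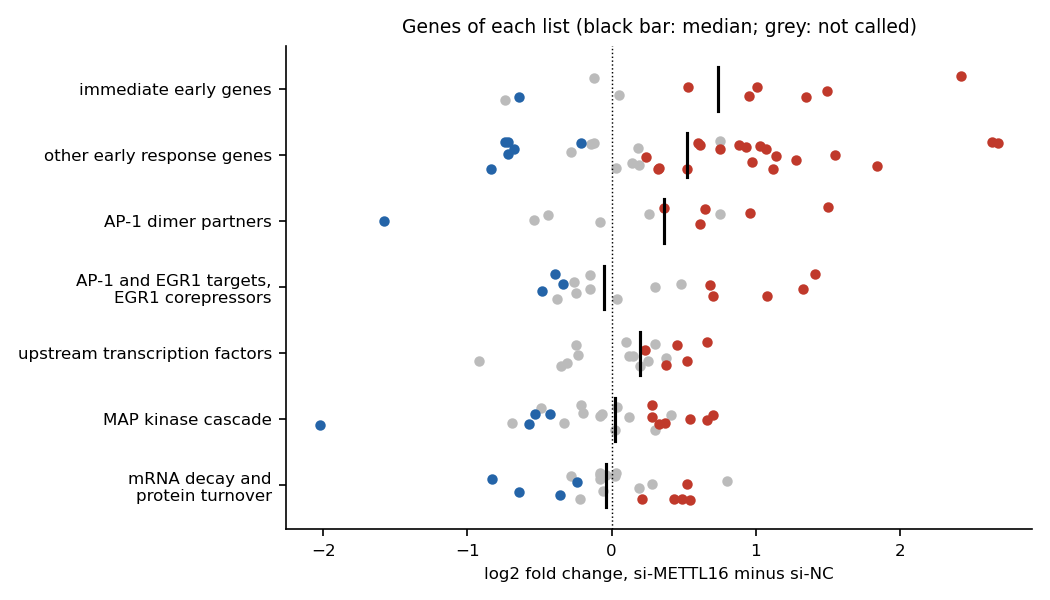
Log2 fold changes (si-METTL16 minus si-NC, edgeR) of the tested genes of each list, a point per gene (red called higher, blue called lower, grey not called), with the median of each list as a black bar. The members have a median of 0.74 and the other early response genes 0.52, while the medians of the MAP kinase, decay and target lists lie between -0.05 and 0.02, near the 0.00 of all tested genes.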

How the data were processed

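RNA-seq had been performed on an Illumina HiSeq with a SMARTER mRNA-seq kit. The authors deposited raw counts per gene and FPKM, in which counts are scaled by a gene length and the sample total. HISAT2 2.0.4, StringTie 1.3.0 and GRCh38 are named in the submitters' processing notes. Strand use is not given in the sources used here. Symbols altered to dates (27) were restored from gene IDs. Samples were grouped and numbered by their titles.

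Members and lists were chosen with earlier results of these data known. Counts were filtered with filterByExpr (minimum count 10, total 15), scaled by TMM and compared with edgeR 4.0.16 (glmQLFit, glmQLFTest, R 4.3.3) over all 15089 genes. Family shares were compared with exact permutation tests (scipy 1.17.1). The study used limma, which was run as an alternative (3.58.1, on voom values and on log2(FPKM + 1) and log2(FPKM + 0.1) with a mean FPKM of at least 1). Other alternatives were DESeq2 1.42.0 (Wald test, size factors), 2 other filters, a replicate block and each sample left out. Scripted steps were tested on simulated data. Named genes were the members, METTL16, and the 2 highest and 2 lowest called genes of each list, of which 1 is not reported here. For FOS and EGR1 the 3 genes with the highest Pearson r were added. SRF, ELK1, ATF3, NAB1, NAB2, the untested genes and those set beside IER2 were named for their roles or after their values were seen. Coordinates are those of the deposited table, and transcript lengths came from GENCODE v44. The common biological coefficient of variation was 16.5%.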

Additional observations from a re-analysis of the deposited data

How the results depend on the processing

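The 5 members FOS, FOSB, JUN, JUNB and EGR1 were called in every fit that tested them, and no single-gene value changed sign (40 of 461 values over 34 genes and 14 alternatives lost a call, while JUND, IER2 and IER3 had none to lose and gained none). Of the 7 called members, 5 to 7 were called when 1 sample was left out, and 4 with limma on log2(FPKM + 0.1), which did not test FOS and FOSB (mean FPKM under 1) and gave FOSL2 an adjusted p of 0.0538. The count over all genes (5418) was 4159 to 4526 with 1 sample left out. For the upstream factors (5 called) it was 3 to 5 with 1 sample left out, 3 without a filter on low genes, and 3 in either limma fit on FPKM (pseudocount 1 or 0.1). For the MAP kinase list (11) it was 6 to 9 with 1 sample left out and 7 without a filter. For the heat shock list (4) it was 2 to 5 with 1 sample left out and 2 with limma on log2(FPKM + 0.1). The cause of these shifts was not tested. The JUN share difference was 21.0 to 22.7 points with 1 sample left out. Same-numbered samples deviated together only weakly (r from 0.025 to 0.037 across genes), although these values lay above those of different-numbered samples (-0.039 to 0.008). The replicate numbers were not taken as pairs. With the replicate number as a block, 7 members and 5013 genes were called, 4731 of them also without it, and BATF3 (adjusted p = 0.0546) and CNOT7 (0.0555) lost their calls. Without a filter on low genes KLF10 (0.0684) and MAPK11 (0.0606) lost theirs, as did HSPD1 in the limma fits on FPKM (0.0542 and 0.0655). Low counts limit FOS and FOSB, and 3 samples per group limit all genes.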

Other observations

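Heat shock genes, a further class of stress-induced genes, showed 3 of 10 higher, 1 lower and 6 not called by edgeR's quasi-likelihood test (median log2 fold change 0.26), a called share of 40% against 35.9% of all tested genes. HSPH1, a chaperone cofactor, rose by 0.60 (adjusted p = 1.9e-04) and BAG3, a cochaperone, fell by 0.39 (adjusted p = 0.00396). The mitochondrial chaperonin HSPD1 was called at 0.42 (adjusted p = 0.0254) but not without any sample except si-METTL16 replicate 1, at 0.33 to 0.44. The number of called genes was 2 without si-NC replicate 3 and 2 without si-METTL16 replicate 2.

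Over the 6 samples, the genes whose log2 CPM was most like that of FOS were ZNF271P (Pearson r = 0.999), TNFRSF12A (0.999) and TMEM126A (0.998). For EGR1 they were SIK1 (r = 1.000), TGFBR2 (0.999) and CKS1BP3 (0.998). SIK1, a kinase gene of the early response list, was at 30.1, 27.2 and 28.4 CPM in si-NC and 80.9, 62.8 and 64.5 CPM in si-METTL16 replicates 1, 2 and 3, so it was highest in replicate 1 as EGR1 was. SIK1 has a near-identical copy in the genome and CKS1BP3 is a pseudogene, so their counts are uncertain. With 2 groups of 3 samples such values are common: 580 genes exceeded an r of 0.95 with FOS and 1045 with EGR1, whereas 48 did so with IER2, for which the closest was STIM1 (0.995). The points share libraries and the group difference, and the values are descriptions.

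The silenced replicates did not rank alike over the members. Replicate 1 was the highest of the 3 for FOS, JUN, JUND, EGR1 and KLF6, replicate 2 for FOSB, FOSL2 and IER2, and replicate 3 for JUNB and IER3. The lowest was replicate 1 for FOSL2 and JUNB, replicate 2 for JUN, JUND, EGR1 and IER3, and replicate 3 for FOS, FOSB, IER2 and KLF6. Some of these ranks rest on near ties of replicates 2 and 3, such as 2.24 and 2.23 CPM for FOS, 162 and 163 for JUN and 113 and 111 for FOSL2. ZFP36, an early response gene whose product promotes decay of AU-rich mRNAs, was named after its values were seen. It was at 62.3, 61.9 and 173 CPM in si-NC and 77.6, 222 and 217 CPM in si-METTL16 replicates 1, 2 and 3 (0.80, adjusted p = 0.271). Like FOSL2, it was lowest in si-METTL16 replicate 1 among the silenced samples, but its si-NC replicate 3 was high as well.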
